A study of Mus musculus with 12 samples.

Results

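The 33 genes described here encode proteins that copy DNA in S phase: the MCM helicase, the factors that load and start it, the DNA polymerases, the sliding clamp and its loader, the enzymes of Okazaki fragment joining and nucleotide supply, and histone supply factors. They were named as a list, and all 33 were found among the 51734 gene symbols in the files, where the estimated counts of all transcripts of a symbol were summed. The series compares thymic T-cell acute lymphoblastic leukemia (T-ALL) in mice whose expression of IL-7Rα, the interleukin-7 receptor alpha chain, is tetracycline-inducible, with thymus of healthy control mice. There were 9 tumor and 3 control libraries of polyadenylated RNA, all of strain F5. The titles call the tumors doxycycline induced. The sources used here do not give whether the controls received doxycycline, the ages of the mice or the promoter behind the inducible receptor. Nor do they say that each library came from a separate animal, so a p-value reflects the spread among these libraries alone, and that spread may be technical.

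In each cell cycle, the origin recognition complex with Cdc6 and Cdt1 loads the MCM2-7 ring onto DNA before S phase, and Cdc45 and the GINS complex turn it into an active helicase when an origin fires. DNA polymerase alpha with primase starts each strand, polymerases delta and epsilon extend it, and the clamp Pcna, set on DNA by the Rfc complex, holds them in place. E2F transcription factors are textbook regulators of many of these genes at the start of S phase, and thymocytes divide rapidly after their early selection steps.

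Promoters were examined because many of these genes are textbook E2F targets and their levels are compared together below. RefSeq windows (GRCm38.p6) from 250 bases before to 50 bases after the gene start were found for 28 of the 33 genes. The E2F-type motif TTTNNCGC, searched on both strands, was present in 13 of the 28 windows (46.4%) and in 5.93% of the windows of 27025 genes. Among other replication genes it was present in 23 of 55 (41.8%), and among G2 and M phase genes in 1 of 19 (5.26%). The motif TTTGAA, also searched on both strands, had the opposite distribution, with 4 of 28 replication genes (14.3%), 14 of 19 G2 and M phase genes (73.7%) and 20.2% of all genes. These are matches of letters and not measured binding sites. Starts here are those of RefSeq. By GENCODE M21 bounds, the matches printed below for Mcm7, Orc1, Cdc6, Gins3 and Rfc3 lie inside the gene. Of the 13 genes, 8 held a match before the RefSeq start. The stretches around it are shown on the strand of the gene, with the match in capitals; in Mcm6 and Mcm5 the capitals cover 2 overlapping matches on opposite strands.
Mcm6 (chr1:128359778-128359841, minus strand): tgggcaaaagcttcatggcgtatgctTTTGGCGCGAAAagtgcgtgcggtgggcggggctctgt
Mcm5 (chr8:75109330-75109393, plus strand): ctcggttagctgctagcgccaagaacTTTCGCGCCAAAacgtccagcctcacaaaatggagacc
Mcm7 (chr5:138172015-138172074, minus strand): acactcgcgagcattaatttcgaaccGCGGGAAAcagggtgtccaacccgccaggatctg
Orc1 (chr4:108579401-108579453, plus strand): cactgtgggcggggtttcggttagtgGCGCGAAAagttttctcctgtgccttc
Cdc6 (chr11:98907987-98908046, plus strand): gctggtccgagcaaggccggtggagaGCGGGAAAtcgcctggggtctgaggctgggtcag
Gins3 (chr8:95633492-95633551, plus strand): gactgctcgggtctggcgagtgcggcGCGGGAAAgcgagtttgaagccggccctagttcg
Pola1 (chrX:93632260-93632319, minus strand): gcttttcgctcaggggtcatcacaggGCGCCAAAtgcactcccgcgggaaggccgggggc
Rfc3 (chr5:151651209-151651244, minus strand): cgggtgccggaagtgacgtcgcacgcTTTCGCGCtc
Mcm6 held a second match 47 bases before its start, and the 2 joined matches shown began 110 bases before it. In Mcm5 they began 153 bases before the start.

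The libraries fell into sets that the labels do not name, and this bears on every comparison with the controls. Of the estimated counts, mitochondrial transcripts made up 31.6% to 69.3% in tumors 1 to 6 and 0.0948% to 11.1% in the other 6 libraries. The summed level of 14 T lineage markers, in CPM (estimated counts per 1000000 counts of a library, with library sizes scaled by trimmed mean of M-values factors, TMM), ranged between 1672 and 2171 in tumors 1 to 6, between 62.2 and 118 in the controls and between 80.6 and 149 in tumors 7 to 9, and no marker was at 0 in any library. Il7r itself lay between 33.3 and 513 CPM in tumors 1 to 6, between 2.52 and 3.20 in the controls and between 5.03 and 5.63 in tumors 7 to 9. Receptor genes of smell (the Olfr, Vmn1r and Vmn2r families) are not known to be expressed in thymocytes, and their median was between 20.4 and 23.3 counts per kilobase for the controls, between 14.1 and 24.9 for tumors 7 to 9 and at most 4.70 for tumors 1 to 6. For 9 of the 14 T lineage markers all of tumors 1 to 6 were above all controls. The thymocyte markers Ptcra and Rag2 did not follow the sum: Rag2 was at 5.30 to 6.86 CPM in the controls and at 4.49, 8.99, 1.85, 2.73, 1.87 and 10.01 in tumors 1 to 6. In bulk RNA, fewer cells of a type and less RNA per cell cannot be told apart, and in these libraries neither can be told apart from the RNA composition of the sets. Tumors 1 to 6 and tumors 7 to 9 were therefore each compared with the controls as well as together.

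None of the 33 replication genes passed an adjusted p of 0.05 when all 9 tumors were compared with the 3 controls (edgeR quasi-likelihood test, Benjamini-Hochberg over 40484 genes). Over all genes tested, 0% were called higher and 0.00494% lower. At an unadjusted p of 0.05, 29 of the 33 passed, beside 18.0% of all genes. That count was 0 with library totals, beside 19.5% of all genes. It was 10 with the receptor-gene level of each library as a covariate, beside 6.95% of all genes. The covariate fit gave a median log2 fold change of 1.61 for the 33, against 0.24 over all genes. The receptor median itself was at most 4.70 counts per kilobase in tumors 1 to 6, 0 in tumor 5, and at least 14.1 in the other libraries. That fit therefore cannot part the receptor level from the split of the tumors. DESeq2 called 22 of the 33 higher, beside 10.1% of all genes. The median log2 fold change of the 33 was 2.98, against -0.45 over all genes, and the smallest adjusted p among them was 0.128.

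Against the controls, 32 of the 33 genes were called higher in tumors 1 to 6 and none lower with TMM factors, but with library totals as the scale 14 were called higher and 3 lower. Over all 38534 genes tested, 19.6% were called higher and 20.3% lower with TMM factors, and 4.29% higher and 74.8% lower with library totals. The median log2 fold change of the 33 was 3.23 with TMM factors and 1.01 with library totals. Over all genes the same medians were -1.29 and -3.70. Relative to the median of all genes, the replication genes stood 4.51 higher with TMM factors and 4.72 higher with library totals, and all 33 lay above that median on both scales. Tumors 1 to 6 were all above all controls for 33 of 33 genes by TMM-scaled CPM, for 11 by library totals and for 3 by the deposited TPM. They were all below all controls for 0, 2 and 5 genes on these 3 scales. Non-overlap was not counted over all genes, so these counts are not shown to be particular to the 33. The T lineage markers and mitochondrial share given above moved with the same split, and their part in the result was not tested.

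In tumors 7 to 9, none of the 33 genes was called against the controls (edgeR quasi-likelihood test), where 0.0247% of 36420 genes were called higher and 0.0247% lower. At an unadjusted p of 0.05, 2 of the 33 passed by edgeR, beside 9.04% of all genes, and 1 by DESeq2, beside 6.94%, and DESeq2 also called none after adjustment. The median log2 fold change of the 33 was -0.08, beside -0.01 over all genes. Gins2, a GINS subunit, had the lowest value: its CPM were 3.58, 3.02 and 2.14 in the controls and 1.27, 1.40 and 1.81 in tumors 7 to 9. These CPM did not overlap, and its log2 fold change was -0.96 ± 0.26 (SE) with an adjusted p of 0.326. The other gene was Mcm2, at -0.42 ± 0.19 (SE) with an adjusted p of 0.548, and the highest value was that of Chaf1a at 0.31 ± 0.25 (SE). All of tumors 7 to 9 were below all controls for 2 of the 33 genes by CPM and for 20 by library totals and by the deposited TPM, and above them for 1, 0 and 0. Such counts were not made over all genes, so they are not shown to be particular to the 33. With library totals the median log2 fold change was -0.83 for the 33 and -0.71 over all genes. Both comparisons used the same 3 controls, and the difference between the 2 sets of tumors was not tested.

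**Figure D1:**
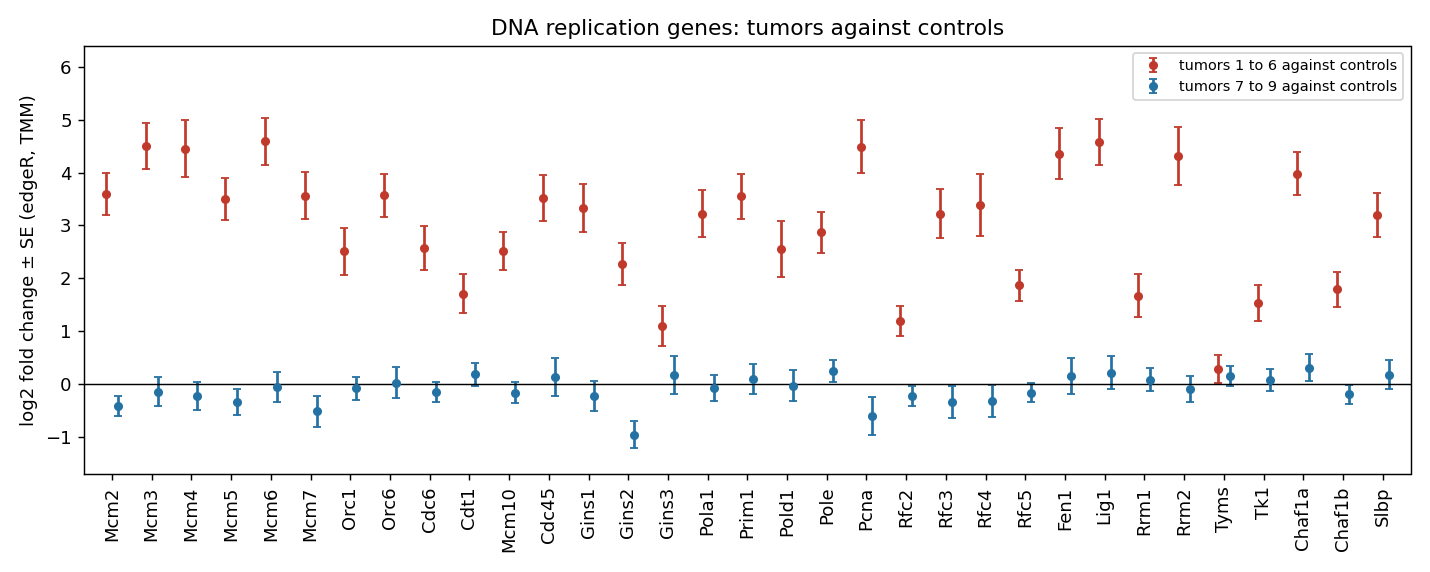
Log2 fold change ± SE (edgeR, TMM factors) of each of the 33 replication genes, on the y axis, in tumors 1 to 6 (red) and tumors 7 to 9 (blue) against the same 3 controls. Red points run from 0.28 for Tyms to 4.59 for Mcm6, and blue points lie between -0.96 and 0.31.

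The MCM subunits form the ring of the replicative helicase. Mcm6 (chr1:128331590-128359664, GRCm38) was at 3.68, 6.99 and 4.94 CPM in the controls, at 134, 169, 164, 133, 196 and 132 in tumors 1 to 6 and at 5.43, 6.01 and 3.72 in tumors 7 to 9. All tumors 1 to 6 were high and the other 6 libraries were low and overlapped. Its log2 fold change in tumors 1 to 6 was 4.59 ± 0.44 (SE; edgeR adjusted p = 1.95e-05), the highest of the 33 genes with TMM factors. Mcm3 had CPM of 3.48, 6.29 and 5.06 in the controls, 110, 131, 172, 128, 174 and 116 in tumors 1 to 6 and 4.45, 5.54 and 3.59 in tumors 7 to 9. Mcm4 had 3.05, 4.91 and 3.68 in the controls, 73.4, 109, 54.7, 101, 175 and 97.0 in tumors 1 to 6 and 3.87, 3.68 and 2.55 in tumors 7 to 9. Tumor 3 was the lowest of the 6 for Mcm4 and among the highest for Mcm3. The log2 fold changes of Mcm2 to Mcm7 ran from 3.50 for Mcm5 to 4.59, and all 6 remained above 0 with library totals.

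Among the loading factors, Cdt1 had the lowest log2 fold change. Cdt1, which brings the MCM ring to the origin, was at 6.03, 5.35 and 4.77 CPM in the controls, at 14.7, 22.9, 28.8, 13.0, 23.2 and 25.9 in tumors 1 to 6 and at 4.45, 7.41 and 6.60 in tumors 7 to 9. Its log2 fold change in tumors 1 to 6 was 1.71 ± 0.37 (SE; edgeR adjusted p = 0.00285), and it became -0.47 with library totals. Cdc6, the ATPase that acts with it, was at 6.66, 5.97 and 4.86 CPM in the controls and at 17.1, 55.8, 65.4, 39.4, 47.4 and 32.8 in tumors 1 to 6, with tumor 1 the lowest. The origin recognition subunits Orc1 and Orc6 had log2 fold changes of 2.51 and 3.57.

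Among the helicase activators, Cdc45, Gins1, Gins2 and Mcm10 had log2 fold changes between 2.27 and 3.52 in tumors 1 to 6. Gins3, a GINS subunit, was lower at 1.10 ± 0.38 (SE; edgeR adjusted p = 0.0367). It was at 3.71, 7.02 and 6.76 CPM in the controls, at 12.3, 14.1, 23.3, 10.6, 19.5 and 12.9 in tumors 1 to 6 and at 4.57, 10.5 and 4.83 in tumors 7 to 9. Tumor 4 and tumor 8 were nearly level for Gins3, and its value with library totals was -1.16. The polymerase genes Pola1, Prim1, Pold1 and Pole had log2 fold changes of 3.23, 3.56, 2.56 and 2.87.

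Pcna (chr2:132249162-132253314, GRCm38), the sliding clamp, was at 5.04, 5.53 and 4.53 CPM in the controls, at 105, 130, 109, 105, 235 and 125 in tumors 1 to 6 and at 5.55, 2.79 and 1.78 in tumors 7 to 9. Tumor 5 was the highest, and the log2 fold change in tumors 1 to 6 was 4.49 ± 0.50 (SE; edgeR adjusted p = 2.93e-05). The pseudogene Pcna-ps2, which can share reads with Pcna, had between 382 and 3014 estimated counts in tumors 1 to 6, between 64 and 70 in the controls and between 21 and 46 in tumors 7 to 9, so the split between the pair is uncertain. The loader subunits spread more widely, from 1.20 for Rfc2, which was at -1.07 with library totals, to 3.38 for Rfc4. Rfc4 was at 1.19, 1.56 and 1.21 CPM in the controls, at 15.8, 22.0, 6.54, 8.19, 28.7 and 16.8 in tumors 1 to 6 and at 0.75, 1.40 and 1.04 in tumors 7 to 9.

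Lig1, the ligase that seals Okazaki fragments, was at 3.48, 5.24 and 5.26 CPM in the controls, at 83.5, 126, 195, 138, 141 and 143 in tumors 1 to 6 and at 5.89, 7.28 and 3.22 in tumors 7 to 9. Its log2 fold change in tumors 1 to 6 was 4.58 ± 0.44 (SE; edgeR adjusted p = 1.95e-05). Fen1, the flap nuclease that prepares the ends for ligation, was at 0.70, 0.55 and 0.85 CPM in the controls, from 15 to 21 estimated counts, and at 9.51, 22.4, 19.6, 12.4, 23.9 and 16.6 in tumors 1 to 6. In tumors 7 to 9 it was at 0.92, 0.80 and 0.64 CPM.

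The nucleotide supply genes had log2 fold changes from 0.28 to 4.31 in tumors 1 to 6. Rrm2, the small subunit of ribonucleotide reductase, was at 4.47, 4.62 and 3.72 CPM in the controls, at 95.9, 71.4, 113, 56.0, 198 and 72.1 in tumors 1 to 6 and at 5.14, 4.10 and 2.88 in tumors 7 to 9. Rrm1, the large subunit, was far higher outside tumors 1 to 6, at 76.1, 84.7 and 79.6 CPM in the controls and 102, 78.5 and 74.8 in tumors 7 to 9, beside 303, 349, 254, 241, 444 and 263 in tumors 1 to 6. The log2 fold change in tumors 1 to 6 was 4.31 ± 0.55 (SE) for Rrm2 and 1.67 ± 0.41 (SE) for Rrm1, and the value of Rrm1 became -0.57 with library totals. Tyms, which makes thymidylate, was the gene not called by edgeR. Its CPM were 49.4, 50.1 and 51.5 in the controls, 80.1, 86.3, 77.7, 79.01, 64.7 and 66.4 in tumors 1 to 6 and 51.6, 54.9 and 63.0 in tumors 7 to 9. By these CPM, scaled over all libraries together, tumors 1 to 6 lay above the controls. In the fit, whose TMM factors came from its own libraries, the log2 fold change was 0.28 ± 0.27 (SE; edgeR adjusted p = 0.372). It was -2.02 with library totals. Tk1, the salvage kinase for thymidine, had 1.52 ± 0.34 (SE), and -0.68 with library totals.

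Slbp binds the stem-loop of histone mRNA, and Chaf1a and Chaf1b are subunits of the CAF-1 complex that places new histones behind the fork. Slbp was at 11.9, 9.75 and 8.98 CPM in the controls, at 81.4, 93.8, 144, 100.2, 173 and 86.3 in tumors 1 to 6 and at 16.2, 10.7 and 7.84 in tumors 7 to 9. Chaf1a was at 3.18, 2.98 and 3.12 CPM in the controls, at 34.7, 53.6, 107, 64.4, 46.8 and 60.7 in tumors 1 to 6 and at 5.03, 3.98 and 2.65 in tumors 7 to 9. In tumors 1 to 6 the log2 fold change was 3.98 ± 0.41 (SE) for Chaf1a and 1.79 ± 0.33 (SE) for Chaf1b, which was at -0.45 with library totals.

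A list of 68 other replication genes had 60 called higher and none lower in tumors 1 to 6, with a median log2 fold change of 2.76, and none called in tumors 7 to 9. By per-length level in tumors 1 to 6 its highest members were Hells, Topbp1 and Dnmt1, at means of 598, 594 and 557, and its lowest were Pold4, Mcm8 and Samhd1, at 6.61, 17.7 and 19.7. Of 22 G2 and M phase genes, 21 were called higher, with a median of 3.40. Of 80 ribosomal protein genes, 76 were called higher, with a median of 3.80. Over all genes tested, 19.6% were called higher and 20.3% lower in tumors 1 to 6, and 0.0247% each way in tumors 7 to 9. With library totals these 3 lists had 19, 9 and 49 genes called higher and 7, 1 and 3 called lower, beside 4.29% and 74.8% of all genes. The replication genes' median therefore lay between those of other gene groups, and nothing particular to them was shown by this contrast.

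The summed counts hid a difference in transcript type. For 28 of the 33 genes the files list transcripts that are not protein coding, mostly retained-intron models. Over these 28, protein-coding transcripts held between 33.7% and 37.5% of the estimated counts in the controls, between 31.9% and 39.6% in tumors 7 to 9 and between 78.8% and 85.7% in tumors 1 to 6. Retained-intron models held between 50.3% and 54.2% in the controls and between 10.6% and 16.6% in tumors 1 to 6. For 18 of the 28 genes all of tumors 1 to 6 had a higher coding share than all controls, and for 1, Rfc2, all had a lower one. Coding shares of other genes were not counted in this way, so the difference is not shown to be particular to the replication genes. kallisto divides reads among overlapping models, so single transcript values are uncertain.

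Rrm1 showed the difference most plainly. Its coding transcript Rrm1-201 had 76.0, 160.8 and 88.8 estimated counts in the controls, and its retained-intron transcript Rrm1-204 had 2106.6, 2057.9 and 1762.9. In tumors 1 to 6 the coding transcript had 2354.0, 2238.6, 1480.7, 1465.0, 10217.6 and 3502.6, and the retained-intron transcript 232.1 to 599.6. Tumors 7 to 9 resembled the controls, with 142.7, 120.2 and 80.1 coding and 1565.9 to 2047.8 retained-intron counts. Prim1, the catalytic primase subunit, had 3.7, 5.8 and 11.9 counts on its coding transcript Prim1-201 in the controls and between 349.5 and 2571.6 in tumors 1 to 6. When coding transcripts alone were counted, an alternative chosen after seeing the data, 28 of the 33 genes were called higher in tumors 1 to 6 and 2 lower, Tyms at -1.26 and Rfc2 at -0.92. Over all 19350 genes tested in that way, 24.8% were called higher and 38.4% lower.

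**Figure D2:**
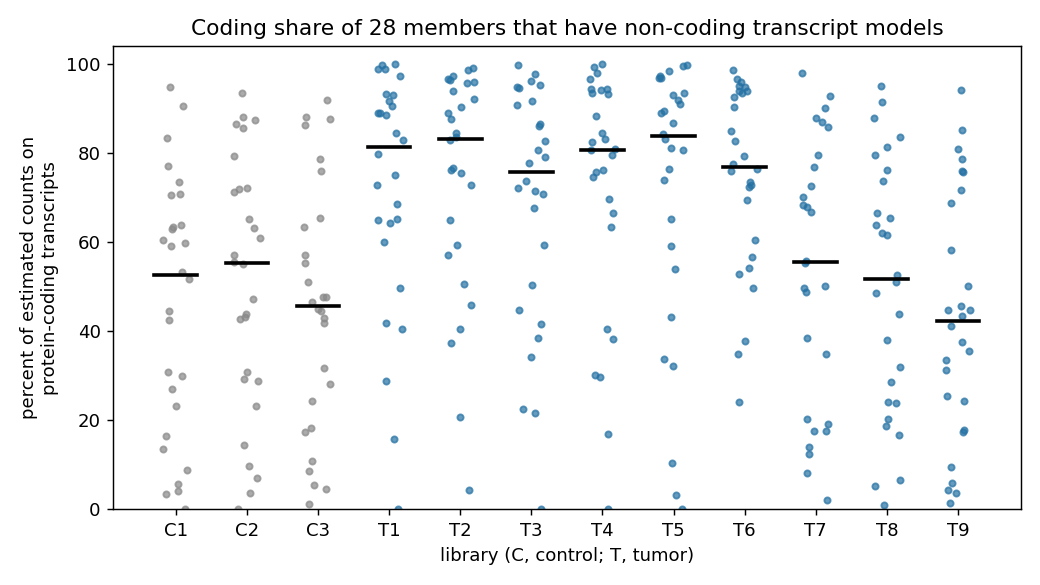
Percentage of each gene's estimated counts on protein-coding transcripts (y axis) in the 12 libraries (x axis) for the 28 replication genes with non-coding models, with 1 point per gene and a bar at the median. The bars lie between 75.8% and 83.7% in tumors 1 to 6 and between 42.3% and 55.5% in the other 6 libraries.

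How far the replication genes stood above the receptor genes of the same library was measured in counts per kilobase. The median replication gene was at 4.18, 4.86 and 4.08 times the receptor median in the controls and at 3.92, 4.83 and 2.94 times in tumors 7 to 9. It was at 42.9, 67.8, 227, 82.9 and 1378 times in tumors 1, 2, 3, 4 and 6, and in tumor 5 the receptor median was 0. Nearest to the receptor median in the controls were Fen1 at 0.42, 0.30 and 0.47 times, Chaf1a at 1.32, 1.19 and 1.21 and Mcm4 at 1.15, 1.78 and 1.31. Farthest above it were Rrm1 at 25.2, 26.4 and 26.3 times, Tyms at 20.1, 19.1 and 19.6 and Gins3 at 8.32, 14.8 and 13.1. Counted on coding transcripts alone, Rrm1 was at 0.85, 1.90 and 1.14 times and Tyms at 11.4, 9.00 and 10.6, while Gins3 was unchanged. Only 4 to 6 of the 33 genes exceeded the 95th percentile of the receptor genes in each control and 2 to 4 in each of tumors 7 to 9, against 32 or 33 in each of tumors 1 to 6. On coding transcripts alone the median multiple was 1.16 to 1.74 in the controls. Differences of most of these genes among the controls and tumors 7 to 9 were therefore measured at levels near those of the receptor genes.

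**Figure D3:**
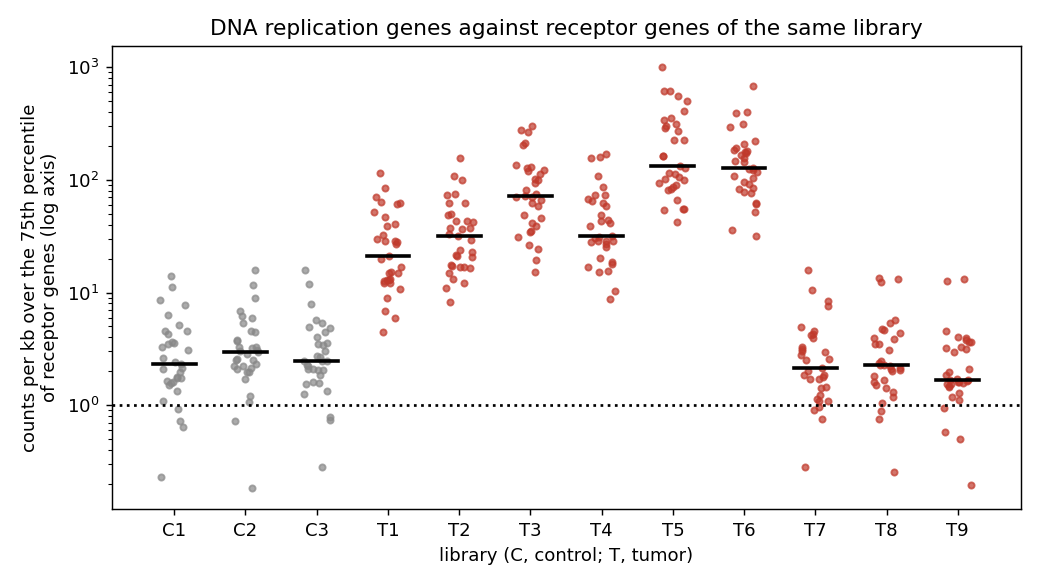
Counts per kilobase of the 33 replication genes divided by the 75th percentile of 1412 receptor genes in the same library (y axis, log scale) in the 12 libraries (x axis), with 1 point per gene, a bar at the median and a dotted line at 1. The medians lie between 21.0 and 133 in tumors 1 to 6 and between 1.68 and 2.94 in the other libraries.

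Levels were compared between genes only in tumors 1 to 6 and per length, as TPM rescaled to sum to 1000000 over protein-coding transcripts outside the mitochondrial genome. A gene's level was summed over all its transcripts, coding or not. The highest mean level was that of Pcna, at 565 ± 309 (SD, n = 6), followed by Lig1 at 379 ± 148, Rrm1 at 369 ± 166 and Slbp at 351 ± 148. Mcm7 at 274 ± 121, Rrm2 at 235 ± 190, Mcm6 at 201 ± 81.5 and Mcm3 at 194 ± 79.8 came next, and neighbours in this order differed by less than the larger of their SDs. The lowest were Fen1 at 32.0 ± 16.5, Gins3 at 36.2 ± 11.9 and Cdt1 at 50.2 ± 30.1. Both ends of this order changed on coding transcripts alone, as multiples of the receptor median in tumors 1, 2, 3, 4 and 6. Lig1 was then above Pcna in each of these tumors, at 129 and 107 times in tumor 1. Rfc2 and Cdt1 were below Fen1 in each. All 33 lay between the 73.4th and 98.7th percentile of protein-coding genes. The SD of the log2 level over the 6 tumors was largest for Rfc4 at 1.05, Cdc6 at 1.05 and Mcm4 at 0.95, and smallest for Gins3 at 0.53.

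**Figure D4:**
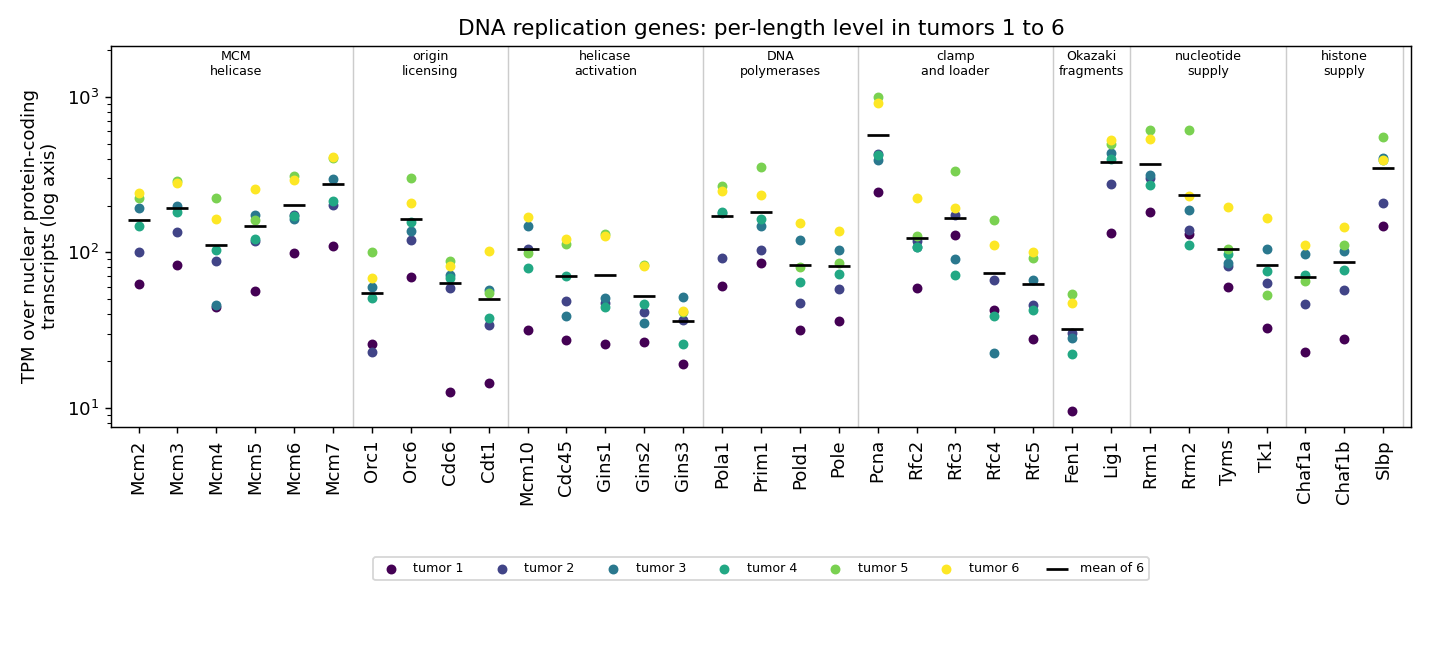
Per-length level (log axis) of the 33 replication genes in tumors 1 to 6, grouped by role, with 1 point per tumor and a bar at the mean of 6. The level is TPM summed over all transcripts of a gene, coding or not. It was rescaled by the sum over nuclear protein-coding transcripts. On this scale tumor 1 is the lowest for 29 genes, tumor 5 the highest for 17 and tumor 6 for 15.

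The order of the tumors depended on the scaling. With the deposited TPM tumor 4 was the lowest for 21 of the 33 genes and tumor 1 for 4, and with TMM factors tumor 1 was the lowest for 17. With ribosomal protein genes as the reference tumor 3 was the highest for 25 genes and tumor 5 for 0.

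The replication genes varied together over tumors 1 to 6, but so did coding genes in general. The median Pearson correlation between pairs of the 33 was 0.82 over the 6 tumors, beside 0.69 for all 5796 coding genes at the same minimum level, 0.75 for other replication genes and 0.89 for the G2 and M phase genes. With TMM factors of the 6 tumors the value for the 33 was 0.54 and that for all coding genes 0.36. All pairs share the same 6 libraries and their scaling, so these are descriptions. Relative to the typical coding gene, the median replication gene was shifted by -0.06, 0.27, 0.11, -0.19, 0.09 and -0.04 on the log2 scale in tumors 1 to 6, a span of 0.46. The G2 and M phase genes spanned 1.12, from -0.47 in tumor 4 to 0.65 in tumor 5. The genes that followed the mean of the others least were Rfc3, with a correlation of 0.45, Rfc4 at 0.57, Rrm2 at 0.68 and Tk1 at 0.68.

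Ratios within a library do not depend on the scaling between libraries. Of 32 pairs of subunits or partners, 16 kept 1 order in all 6 tumors. Mcm7 was above each of Mcm2 to Mcm6 in 6 of 6 tumors. With the longest coding transcript as the length, however, Mcm3 was above Mcm7 in 5 of 6 tumors. Mcm2, Mcm4 and Mcm6 were each above Mcm7 in 1 with that length. On coding transcripts alone, Mcm3 and Mcm6 were above Mcm7 in tumor 4, at 154 and 168 beside 138 times the receptor median. Mcm4 was below Mcm3, Mcm6 and Mcm7 in 6 of 6. The ratio of Mcm2 to Mcm4 was 1.41, 1.16, 4.20, 1.43, 1.00 and 1.48 in tumors 1 to 6, so that tumor 3 stood apart. Rfc2 over Rfc4 was also highest in tumor 3, at 4.87, where Rfc4 had 53 estimated counts, beside 0.78 to 2.75 in the other 5. Orc6 was above Orc1 and Lig1 above Fen1 in 6 of 6 tumors. Rrm1 over Rrm2 was 1.37, 2.17, 1.68, 2.45, 0.99 and 2.33, with tumor 5 the lowest.

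GC content moved with some of these deviations. Across the 33 genes, the correlation of a gene's centred level with the GC content of its transcript was -0.39, -0.04, 0.53, 0.13, -0.59 and 0.46 in tumors 1 to 6, and across 5786 coding genes it was 0.00, 0.07, 0.23, -0.02, -0.33 and 0.14. Genes are not independent replicates. Mcm4 and Rfc4 had GC contents of 45.5% and 43.5%, and Mcm2 and Rfc2 had 55.5% and 50.5%. The part of GC content in the ratios was not tested.

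**Figure D5:**
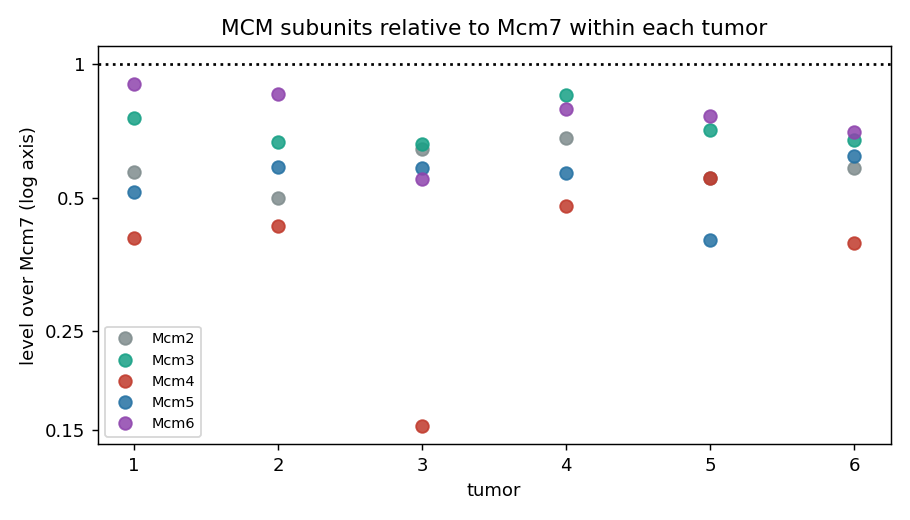
Level of Mcm2 to Mcm6 divided by that of Mcm7 in the same tumor (y axis, log scale) for tumors 1 to 6 (x axis), with 1 point per gene and a dotted line at 1. All points lie below 1, and Mcm4 in tumor 3 is the lowest, at 0.153.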

How the data were processed

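The authors deposited, per the file headers, kallisto estimated counts for each transcript with its length and effective length, and TPM values. FastQC, kallisto and the mm10 build appear in the submitters' processing notes, with versions and annotation not given in the sources used here. Total estimated counts were 8133152 to 12019924 in the controls and 11617724 to 34769946 in the tumors. Near-identical and overlapping genes share reads, and the sources used here do not state a strand setting.

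Estimated counts were summed by gene symbol and rounded. Groups were compared with edgeR 4.0.16 (R 4.3.3), using glmQLFit, glmQLFTest, TMM factors and filterByExpr by group at its minimum count of 10, with Benjamini-Hochberg adjustment over all genes tested and a threshold of 0.05. The fits were tested on simulated counts, drawn for every library from the control means with a set of genes changed. The simulation did not hold the difference in RNA composition between the sets of libraries, so it cannot tell how the fits behave under it. Standard errors were derived from the log2 fold change and the quasi-likelihood F. Alternatives used DESeq2 1.42.0, limma 3.58.1 on log2 of the deposited TPM plus 1 or 0.1, other scalings, filters and transcripts, a replicate block, and each library left out. Coordinates came from GENCODE M21 (GRCm38). For 5 genes its identifier version differed from that in the files.

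Genes named in full were the 8 with the highest and 3 with the lowest mean level in tumors 1 to 6, the 3 with the largest SD, and the 3 nearest to and 3 farthest above the receptor genes in the controls. Gins2, Mcm2, Prim1 and other genes with values were named after their values were seen. The genes, lists and the split of tumors 1 to 6 from tumors 7 to 9 were chosen with earlier results of these data known. Marker lists other than T lineage had summed CPM in controls, tumors 1 to 6 and tumors 7 to 9 of 29.3 to 34.8, 5.10 to 23.5 and 31.1 to 43.7 for B cells, 11.8 to 13.8, 13.4 to 71.9 and 11.6 to 14.3 for macrophages, 4.86 to 14.6, 2.67 to 11.5 and 3.81 to 4.63 for erythroid cells, 24.2 to 32.6, 5.14 to 24.9 and 30.0 to 32.5 for thymic epithelium, and 35.5 to 40.9, 16.8 to 201.2 and 47.3 to 54.4 for fibroblasts.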

Additional observations from a re-analysis of the deposited data

Results flagged for a closer look

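Among the 33 levels and 32 ratios over tumors 1 to 6, 6 had 1 tumor far from the others, by a gap to its neighbour over 0.625 of the whole range. Chance flags about 1 in 20 such groups. Rrm2 was at a level of 614 in tumor 5, beside 111 to 230 in the other tumors. Tyms was at 197 in tumor 6, beside 60.2 to 106. In tumor 3 the ratio of Mcm2 to Mcm4 was 4.20, that of Mcm3 to Mcm4 was 4.33 and that of Mcm4 to Mcm7 was 0.153, and these 3 share Mcm4. The ratio of Orc1 to Orc6 was 0.190 in tumor 2, beside 0.326 to 0.439.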

How the results depend on the processing

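For all 9 tumors, edgeR called 0 of the 33 genes higher and DESeq2 22, beside 10.1% of all genes for DESeq2. Limma on log2 TPM called 2 lower with either pseudocount, beside 79.3% and 76.6% of all genes. A replicate block called 32 higher, beside 20.7% of all genes. Only tumors 1 to 3 share a number with a control, so the block's contrast rested on them and was not one of all 9 tumors. The replicate block left the 32 calls of tumors 1 to 6 at 32, beside 18.9% of all genes, and there too it rested on tumors 1 to 3. Same-numbered control and tumor libraries had correlations of -0.07, 0.04 and -0.06, so the numbers were not taken to pair the samples. The median log2 fold change for all tumors was 0.61 with library totals, -0.50 with limma on log2(TPM + 1), -0.68 with log2(TPM + 0.1) and 1.61 with the receptor-gene covariate. Over all genes the same medians were -1.83, -1.14, -2.62 and 0.24. For tumors 1 to 6, library totals gave 14 higher and 3 lower calls, beside 4.29% and 74.8% of all genes, and a median of 1.01. Protein-coding genes only gave a median of 2.41. Coding transcripts only gave 2 lower calls, beside 38.4% of all genes, and a median of 2.87. For tumors 7 to 9, library totals gave a median of -0.83, beside -0.71 over all genes. Leaving out each library in turn gave 0 calls for all tumors, where 0 of all genes tested were called higher and 0 to 3 lower. It gave 31 to 32 calls for tumors 1 to 6 and 0 for tumors 7 to 9. Shares over all genes are not given here for those fits, so their counts are not shown to be particular to the 33.

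With library totals the sign turned in tumors 1 to 6 for Cdt1 (-0.47), Rrm1 (-0.57), Tyms (-2.02), Gins3 (-1.16), Chaf1b (-0.45), Rfc2 (-1.07), Rfc5 (-0.40) and Tk1 (-0.68), and in tumors 7 to 9 for 13 of the 33 genes, among them Chaf1a (-0.52). Tyms was also at -0.0058 with RLE factors, -0.0052 with DESeq2 and -0.53 with protein-coding genes only. With coding transcripts only, Tyms was at -1.26, Gins3 at -0.20 and Rfc2 at -0.92. The cause was not tested.

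Over tumors 1 to 6 the median SD of the log2 level was 0.78, and 0.49 with TMM factors, 0.61 against ribosomal protein genes and 0.53 to 0.84 with each tumor left out, lowest without tumor 1. The median pairwise correlation was 0.73 with coding transcripts only, 0.54 with TMM factors and 0.69 to 0.89 with each tumor left out. Of the 32 log2 ratios, 6 changed sign with coding transcripts only, and 4 of these were among the 16 of 1 order in every tumor: Rfc2 over Rfc5 (-2.14), Rfc3 over Rfc4 (-0.33), Rfc3 over Rfc5 (-0.16) and Chaf1a over Chaf1b (0.21). With the longest transcript as the length 8 of the 32 changed sign, and 2 of these were among the 16: Mcm3 over Mcm7 (0.21) and Rfc2 over Rfc5 (-0.63). The median multiple of the receptor genes in the controls was 2.48 against their 75th percentile and 1.31 with coding transcripts only. In tumors 7 to 9 it was 2.15 and 1.65.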
